A study of Mus musculus with 3 samples.

Results

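The transcripts of 9 genes of glutathione synthesis, ferroptosis defence and the NRF2 response were measured in 4T1 cancer stem cell spheroids (CSCsp). The genes were Slc7a11, Gclc, Gclm, Gpx4, Acsl4, Txnrd1, Srxn1, Nqo1 and Hmox1, and each was taken as all transcripts that carry its name in the deposited files, which makes 9 of 24402 gene symbols and 16 RefSeq transcripts. The 4T1 line comes from a triple negative mammary tumor of a Balb/c mouse, and its spheroids were grown without attachment in serum free medium for 7 days and kept when larger than 40 μm. The study exposed them to splenocytes of female Balb/c mice that were injected with 4T1 cells in the mammary fat pad at 8 weeks of age. The spleens were taken 28 days after the injection. The library labelled N holds CSCsp with no co-culture. The library labelled P holds CSCsp after co-culture with tumor antigen primed splenocytes, which had been held in DPBS, and the library labelled R holds CSCsp after co-culture with such splenocytes whose activation was reinforced by anti-CD3/CD28 dynabeads and IL2.

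There was 1 library per condition, for which the study states that RNA of independent experiments was multiplexed, so differences between conditions come without replicates and were not tested. Values are FPKM, fragments scaled to transcript length and library size, which allows levels to be compared between genes. Each FPKM and each ratio carries a 95% interval that covers counting error only. A gene was counted as apart when its log2 ratio, with 0.1 added to both values, reached 2-fold and its FPKM was at least 1 in either library. Ratios are written P/N, R/N and R/P. The libraries held 17894139 (N), 17887652 (P) and 19178982 (R) read pairs on transcripts. The files were named differently from the labels, which puts the assignment of N and P in doubt. P/N may thus have to be read as N/P, and R/N and R/P may have to trade places for every gene. Of 11 pan-leukocyte markers, 6 reached an FPKM of 1 in N, 2 in P and 5 in R, and their summed FPKM was 29.8, 20.3 and 30.3. Ptprc, Cd52 and Cd48 were at 0 in P, and Cd48 was at 0 in R. Markers of macrophages and monocytes summed to 75.4, 32.5 and 72.2, those of neutrophils and granulocytes to 217, 165 and 213, and those of T and NK cells to 0.889, 0.505 and 3.02. In P, the leukocyte, macrophage and neutrophil sums came mostly from a few genes. These were Lcp1 (12.4, 12.1 and 12.3) and Arhgdib (9.77, 7.43 and 11.7), and Cd68 (21.4, 18.0 and 19.2) and Cd14 (18.4, 12.5 and 17.1). For neutrophils they were Padi4 (122, 107 and 149) and Mmp9 (59.4, 44.6 and 41.3). Other markers differed more, with Lyz2 at 28.9, 0.31 and 6.51 and S100a8 at 8.20, 0.55 and 5.58. Markers of B and plasma cells summed to 2.23, 0.405 and 3.50, and those of red cells to 40.5, 35.2 and 29.1. Of 14 mammary epithelial tumor markers, 13 reached an FPKM of 1 in every library, and Krt5, a basal keratin, was at 0 in all 3. They summed to 2686 in N, 2348 in P and 2045 in R. The median log2 ratio of the 13 was -0.17 for P/N and -0.42 for R/N, with 4 of 13 above 0 for R/N. Krt14 was 2-fold lower in R than in N.

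Slc7a11 is the light chain of system xc-, which imports cystine, the source of the cysteine that limits glutathione synthesis. Gclc and Gclm are the catalytic and the modifier subunit of glutamate-cysteine ligase, which makes the first bond of glutathione. Gpx4 uses glutathione to reduce lipid hydroperoxides and so protects cells from ferroptosis, while Acsl4 loads membranes with the polyunsaturated lipids that ferroptosis consumes. Gclc, Gclm, Slc7a11, Txnrd1, Srxn1, Nqo1 and Hmox1 are textbook targets of NRF2, a transcription factor that binds antioxidant response elements when Keap1 no longer holds it back. Hmox1 is also repressed by Bach1.

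The promoters of the genes were searched for the core of the antioxidant response element, TGACNNNGC, on both strands, because 1 gene of the set, Gclm, differed most between libraries. RefSeq promoters (GRCm38.p6) were at hand for 7 of the 9 genes, as 12 windows of 250 bases before a transcription start, with Hmox1 and Gclc not among them. These starts were not always those of the measured transcripts. The Acsl4 window lies within the first exon of the measured Acsl4 transcripts. No Gpx4 window ends at the start of NM_008162, the most abundant Gpx4 transcript. The core was found in 2 of the 12 windows, 1 of Gclm and 1 of Txnrd1, and in 10.2% of 32851 mouse promoter windows of the same length. The 250 bases before the start of Gclm, chr3:122245307-122245556 on the + strand, are shown because this is the gene that was counted as apart, with the match in capitals (the core on the opposite strand). The match of Txnrd1 is shown with its flanks, chr10:82859094-82859142 on the + strand, because it precedes a first exon shared by NM_001042513, the most abundant Txnrd1 transcript, and NM_015762.
Gclm: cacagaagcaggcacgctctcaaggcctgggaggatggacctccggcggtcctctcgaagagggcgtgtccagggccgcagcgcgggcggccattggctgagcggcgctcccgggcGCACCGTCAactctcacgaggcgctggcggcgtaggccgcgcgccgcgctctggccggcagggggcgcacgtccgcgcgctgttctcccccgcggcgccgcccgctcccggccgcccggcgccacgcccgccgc
Txnrd1: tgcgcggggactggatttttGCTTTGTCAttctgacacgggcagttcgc
The match begins 134 bases before the start of Gclm and 92 bases before that of Txnrd1. It is a description of letters and does not show a binding site.

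The 9 genes spanned a wide range of levels in CSCsp. Gpx4 was highest in every library, at an FPKM of 293 in N, 219 in P and 253 in R, above 98.4%, 98.1% and 98.2% of the genes with an FPKM of at least 1. Acsl4 and Txnrd1 followed in this order in all 3 libraries. Slc7a11 was lowest in all 3, below an FPKM of 1 on its RefSeq transcript and at 2.28, 2.17 and 3.13 with an assembled one. Between these, the order differed between libraries. Gclm was the seventh of 9 in N, the eighth in P and the fourth in R, whereas Hmox1 was the fourth in N and P and the sixth in R. The intervals of Srxn1 and Gclc overlapped in N and P, those of Gclc and Gclm in N, those of Nqo1 and Gclm in P, and in R those of Gclm and Srxn1 and those of Hmox1 and Gclc. All other neighbours in the order were separated beyond counting error.

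**Figure D1:**
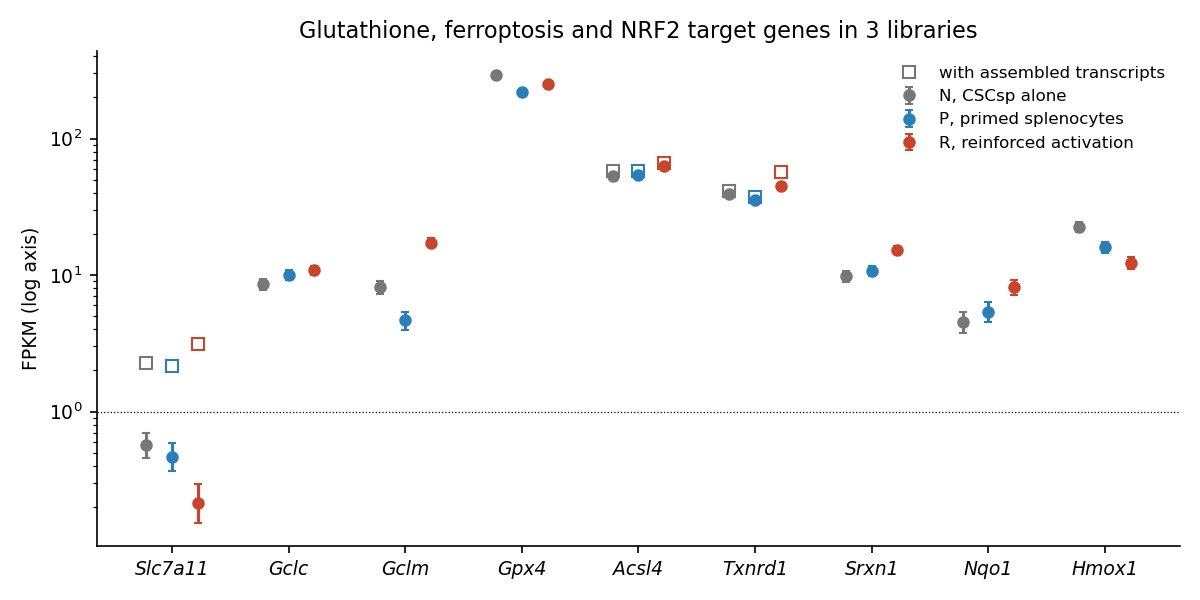
FPKM of the 9 genes (log axis) in the libraries N, P and R. Filled circles are transcripts that carry the gene name, with 95% Poisson intervals for counting error, and open squares add transcripts assembled from the reads. Gpx4 lies between 219 and 293, Gclm between 4.65 and 17.2, and Slc7a11 moves from below 1 to between 2.17 and 3.13 when the assembled transcript is added.

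Of the 8 genes with an FPKM of at least 1, none was 2-fold apart between P and N, where 2.74% of 10200 genes were higher and 3.54% lower. Between R and N 1 of the 8, Gclm, was 2-fold higher and none was lower, against 5.17% and 3.8% of 10270 genes. Between R and P the same gene was 2-fold higher and none was lower, against 6.21% and 3.69% of 10292 genes. At 1.5-fold, 0 of the 8 were higher and 1 (Gclm) lower in P than in N, against 6.0% and 7.06% of all genes. At the same fold 3 of the 8 (Gclm, Srxn1 and Nqo1) were higher and 1 (Hmox1) lower in R than in N, against 11.7% and 7.47% of all genes. In R against P, 2 of the 8 (Gclm and Nqo1) were higher and 0 lower, against 12.7% and 8.33%. The median log2 ratio of the 8 was -0.06 for P/N, 0.28 for R/N and 0.28 for R/P, beside 0.02, 0.09 and 0.06 for all genes. R/N and P/N share the library N, and R/P and P/N share the library P.

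**Figure D2:**
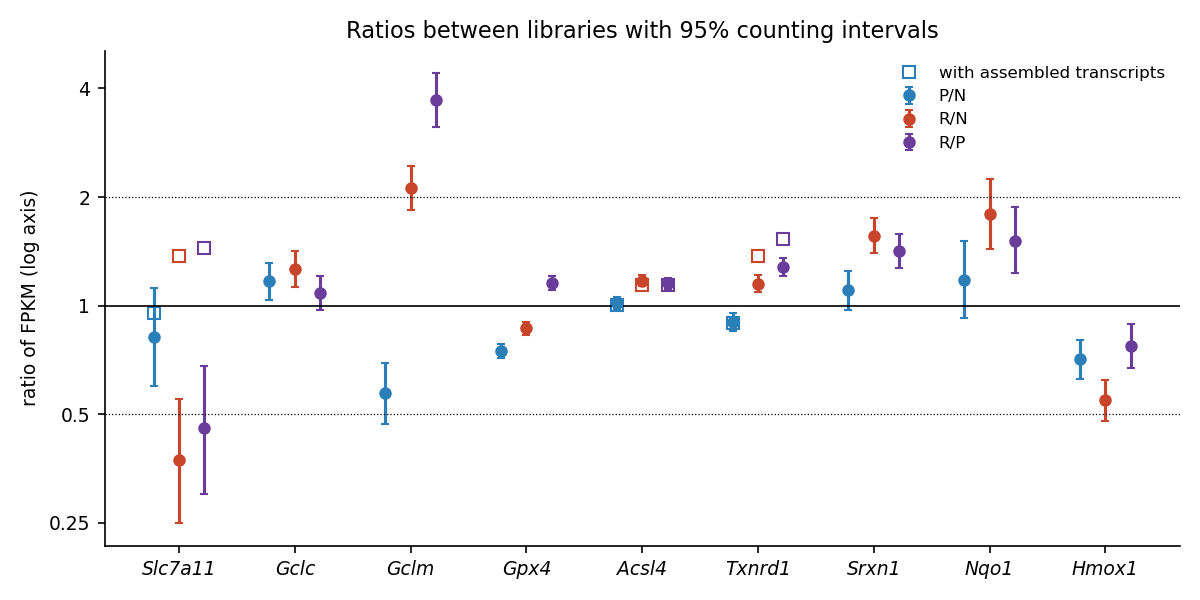
Ratio of FPKM (log axis) for P/N, R/N and R/P, with exact 95% counting intervals for the filled circles. Open squares add assembled transcripts, and dotted lines mark 0.5 and 2. Gclm reaches 2.12 for R/N and 3.71 for R/P, Hmox1 lies below 1 in all 3 comparisons, and R/N and R/P of Slc7a11 cross 1 when the assembled transcript is added.

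Glutamate-cysteine ligase showed the widest difference, and it was in the modifier subunit. Gclm (chr3:122245557-122267215, + strand, GRCm38) had an FPKM of 8.13 (7.25 to 9.12, 302 fragments) in N, 4.65 (3.97 to 5.39, 172 fragments) in P and 17.2 (16.0 to 18.6, 685 fragments) in R. R was above both other libraries and P below both, with no overlap of the intervals. The ratio was 0.57 (0.47 to 0.69) for P/N, 2.12 (1.85 to 2.43) for R/N and 3.71 (3.13 to 4.41) for R/P. With 1 added to both values instead of 0.1 the log2 ratio of R/N was 0.997 and Gclm was no longer counted as 2-fold apart there. The summed pan-leukocyte markers were also lowest in P, and their part in the value of Gclm was not tested. In bulk RNA, fewer cells of a type and less RNA per cell cannot be told apart.

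Gclc (chr9:77754535-77794489, + strand), the catalytic subunit, varied much less. Its FPKM was 8.54 (7.83 to 9.31) in N, 9.98 (9.21 to 10.8) in P and 10.8 (10.02 to 11.6) in R. Its ratio was 1.17 (1.04 to 1.32) for P/N and 1.26 (1.13 to 1.42) for R/N, while the interval for R/P, 0.97 to 1.21, held 1. The FPKM of Gclc per FPKM of Gclm was 1.05 (0.91 to 1.21) in N, 2.15 (1.81 to 2.56) in P and 0.63 (0.56 to 0.70) in R. The catalytic transcript was thus level with the modifier transcript in N, in excess in P and the lesser one in R.

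Slc7a11 (chr3:50364936-50443613, - strand) depended on which transcript was counted. The RefSeq transcript NM_011990 had an FPKM of 0.57 (0.46 to 0.70) in N, 0.46 (0.37 to 0.58) in P and 0.21 (0.15 to 0.30) in R, from 94, 77 and 38 fragments. An assembled transcript of the same locus, MSTRG.8948.2, carries no gene name in the files and had 1.71, 1.71 and 2.92. It shares 11 of the 12 RefSeq exons and lacks 30 bases (chr3:50366165-50366194) inside the last one, 6108 bases past the stop codon and so in the 3′ UTR. Together the 2 transcripts came to 2.28 (2.05 to 2.52) in N, 2.17 (1.96 to 2.41) in P and 3.13 (2.88 to 3.41) in R. The ratio of R/N was 0.37 (0.25 to 0.55) for the RefSeq transcript alone and 1.38 (1.20 to 1.57) for both. The direction of R against N, and of R against P, thus turned with the inclusion of the assembled transcript, while P/N was 0.82 (0.60 to 1.12) and 0.95 (0.82 to 1.11). Coverage of the 11 shared exons, summed over both transcripts, does not depend on how reads were divided between them. The median ratio of this coverage was 0.97 for P/N, 1.26 for R/N and 1.15 for R/P. For R/N 8 of the 11 exons lay above 1, and for R/P 9 of the 11. The ratio was uneven along the gene. For exons 1 to 6 it lay between 0.71 and 0.97 for P/N and between 0.87 and 1.26 for R/N, and for exons 7 to 11 between 1.31 and 1.92 and between 1.42 and 2.03. This split of the exons was made after their values were seen.

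Gpx4 (chr10:80047166-80056439, + strand) was the most abundant of the 9 genes and varied little. Its FPKM was 293 (285 to 301) in N, 219 (212 to 226) in P and 253 (246 to 261) in R. N was highest and P lowest, with a ratio of 0.75 (0.72 to 0.78) for P/N, 0.86 (0.83 to 0.90) for R/N and 1.15 (1.11 to 1.20) for R/P. Transcript NM_008162 held 95.8%, 96.2% and 98.5% of this level. NM_001037741, which begins in the first intron of NM_008162, had an FPKM of 11.6 in N, 8.29 in P and 3.80 in R, from 210, 150 and 74 fragments, and an alternative first exon in this intron is known to encode the nuclear form of the enzyme. Gpx4 has near-identical pseudogene copies in the mouse genome, and how reads shared with them were placed is not given in the sources used here.

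Acsl4 (chrX:142317993-142391092, - strand), on the lipid side of ferroptosis, had an FPKM of 53.6 (52.1 to 55.0) in N, 54.5 (53.0 to 56.0) in P and 62.8 (61.3 to 64.3) in R. N and P did not differ beyond counting error, at a ratio of 1.02 (0.98 to 1.06), and R was 1.17 times N (1.13 to 1.22) and 1.15 times P (1.11 to 1.20). The FPKM of Gpx4 per FPKM of Acsl4 was 5.47 (5.26 to 5.68) in N, 4.03 (3.86 to 4.20) in P and 4.03 (3.88 to 4.18) in R. Among the transcripts, NM_019477 had 30.2, 43.0 and 49.5, and NM_001033600 had 19.6, 10.03 and 12.0. These 2 transcripts, of 5547 and 5544 bases, have the same exons except for exon 3, of 240 and 237 bases. Few reads can therefore tell them apart, and their shares carry more error than the intervals show. NM_207625, the third RefSeq transcript, had 3.76, 1.45 and 1.31, and the assembled MSTRG.15578.1 had 3.72, 2.01 and 2.28.

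The reductases of the thioredoxin arm were highest in R. Txnrd1 (chr10:82833951-82897724, + strand), which keeps thioredoxin reduced, had an FPKM of 39.2 (37.6 to 40.8) in N, 35.3 (33.8 to 36.8) in P and 45.1 (43.5 to 46.8) in R. Its ratio was 0.90 (0.85 to 0.96) for P/N, 1.15 (1.09 to 1.22) for R/N and 1.28 (1.21 to 1.35) for R/P. With 3 assembled transcripts of the locus the level was 41.6, 37.2 and 57.0, and the ratio 1.37 (1.30 to 1.44) for R/N and 1.53 (1.45 to 1.61) for R/P. NM_001042513, the main transcript, had 29.9, 30.1 and 40.0. NM_001042514, which begins at another first exon, had 5.92, 3.60 and 3.10. NM_015762, which shares the first exon of the main transcript downstream of the motif match shown above, had 3.13, 1.42 and 1.80. The assembled MSTRG.1405.4 begins there too and had 2.41, 1.90 and 1.20. As divided in the files, the main transcript was higher in R and the 2 lesser RefSeq ones named here were highest in N. These transcripts share most of their exons. The assembled MSTRG.1405.2, 1 base longer than the main transcript, took 9.52 in R. How reads were divided among them adds error beyond counting.

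Srxn1 (chr2:152105524-152111376, + strand), the sulfiredoxin that restores overoxidised peroxiredoxins, had an FPKM of 9.77 (8.91 to 10.7) in N, 10.8 (9.91 to 11.7) in P and 15.3 (14.3 to 16.4) in R. The interval of P/N, 0.98 to 1.25, held 1, and R was 1.56 times N (1.40 to 1.75) and 1.42 times P (1.27 to 1.58). Nqo1 (chr8:107388225-107403205, - strand), a quinone reductase, had 4.53 (3.78 to 5.40) in N, 5.35 (4.54 to 6.30) in P and 8.11 (7.11 to 9.19) in R. Here too P/N held 1 (0.93 to 1.51), with R at 1.79 times N (1.44 to 2.24) and 1.52 times P (1.23 to 1.87). In both genes the level of R lay outside the intervals of N and P, which overlapped each other.

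Hmox1 (chr8:75093618-75100593, + strand), which breaks heme down to biliverdin, carbon monoxide and iron, went the other way. Its FPKM was 22.4 (20.7 to 24.3) in N, 15.9 (14.5 to 17.5) in P and 12.3 (11.1 to 13.6) in R, from 633, 449 and 371 fragments. N was highest and R lowest, with no overlap of the intervals. The ratio was 0.71 (0.63 to 0.80) for P/N, 0.55 (0.48 to 0.62) for R/N and 0.77 (0.67 to 0.89) for R/P. Macrophages express Hmox1. Their markers summed to 75.4 in N, 32.5 in P and 72.2 in R and differed in direction, with Lyz2 at 28.9, 0.31 and 6.51, Ly6c2 at 2.06, 1.03 and 19.4 and Mpeg1 at 0.70, 0 and 6.59. Their part in the value of Hmox1 was not tested.

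The evenness of these ratios over the exons differed between genes. For Gclm, coverage per aligned base was below that of N in P in all 7 exons (ratios 0.48 to 0.65) and above that of N in R in all 7 (1.71 to 2.59). For Hmox1, all 5 exons were lower in P than in N (0.64 to 0.84) and in R than in N (0.48 to 0.71). All 6 exons of Nqo1 and both exons of Srxn1 had more coverage in R than in N, with ratios of 1.40 to 2.08 and 1.29 to 1.61. Nqo1 was less even for P/N, at 0.82 to 1.47. Gclc had 13 of 16 exons above 1 for P/N (0.82 to 1.53) and all 16 for R/N (1.05 to 2.08). In Gpx4 the 5 exons shared by its transcripts had ratios of 0.70 to 0.79 for P/N and 0.85 to 0.89 for R/N. The 10 exons shared by all Txnrd1 transcripts, assembled ones included, had ratios of 1.16 to 1.48 for R/N. Exons of 1 gene share their fragments and library and are not replicates.

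**Figure D3:**
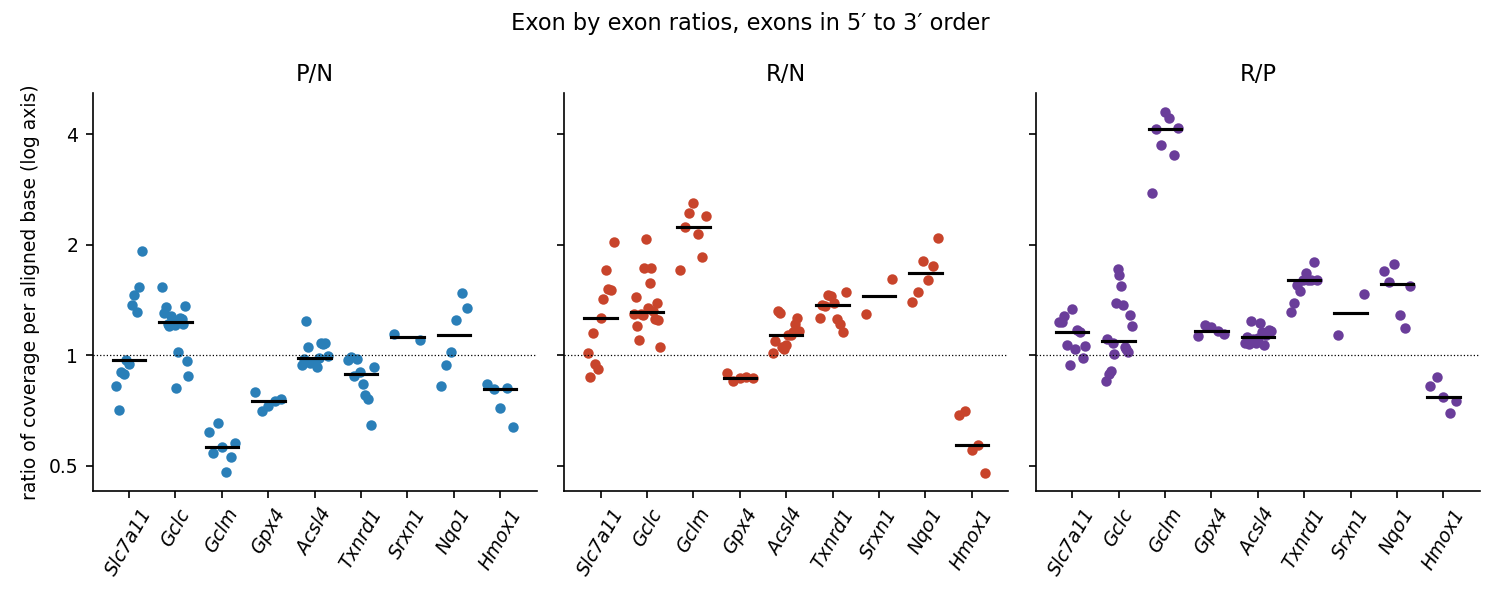
Ratio of exon coverage per aligned base (log axis) for P/N, R/N and R/P, with 1 point per exon shared by all transcripts of the gene in 5′ to 3′ order and the median as a bar. The 7 exons of Gclm lie between 1.71 and 2.59 and the 5 of Hmox1 between 0.48 and 0.71 for R/N, while Slc7a11 spreads from 0.87 to 2.03.

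**Figure D4:**
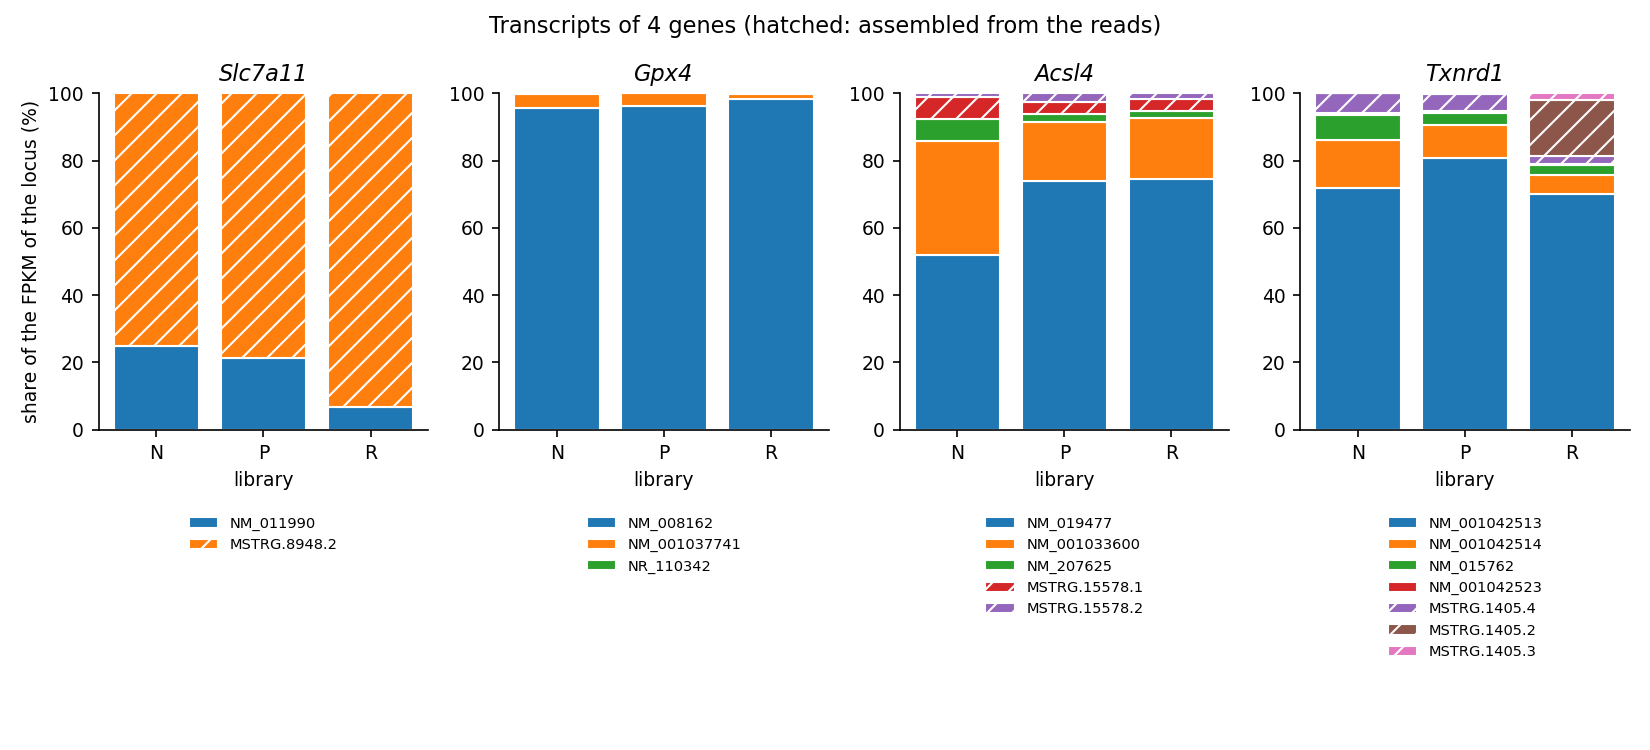
Share of the FPKM of the locus (%) held by each transcript of Slc7a11, Gpx4, Acsl4 and Txnrd1 in the libraries N, P and R, with assembled transcripts hatched. The assembled transcript holds 75.1%, 78.6% and 93.2% of Slc7a11, NM_008162 holds over 95% of Gpx4 in every library, and MSTRG.1405.2 holds 16.7% of Txnrd1 in R.

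The other genes of these pathways were described from 10 lists with 208 genes in all, members included. Of 179 with an FPKM of at least 1 in P or N, 0 were 2-fold higher and 7 lower in P. Of 179 in R and N, 6 were higher and 5 lower in R, and of 179 in R and P, 12 were higher and 5 lower in R. These shares, 0.0% and 3.91%, 3.35% and 2.79%, and 6.7% and 2.79%, stand beside the shares of all genes given above. When transcripts assembled at the locus were added, 4 of the 7, 4 of the 6 and 2 of the 5, and 9 of the 12 and 2 of the 5 were still apart in the same direction. With these transcripts added, 0.521% of all genes were 2-fold higher and 1.55% lower in P than in N, 3.09% and 1.88% in R than in N, and 4.16% and 1.69% in R than in P.

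Among 12 measured genes of cystine uptake and glutathione synthesis, Gclm was the only one 2-fold apart, in R against N and against P. Their median log2 ratio stood at 0.06 for P/N, 0.15 for R/N and 0.07 for R/P. Slc3a2, the heavy chain that carries Slc7a11 to the membrane, was the highest of the list, with an FPKM of 71.9 in N, 71.0 in P and 68.6 in R. Slc1a4, a neutral amino acid transporter, had the lowest ratio of R/N among genes at an FPKM of 5 or more, at 12.5, 14.5 and 8.73.

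Of 23 genes of glutathione reduction, peroxidases and transferases, 0 were 2-fold higher and 1 lower in P than in N, 1 higher in R than in N, and 3 higher in R than in P, with medians of -0.03, 0.06 and 0.09. Glrx, a glutaredoxin that removes glutathione from protein thiols, had an FPKM of 9.25 in N, 4.58 in P and 19.2 in R. With assembled transcripts Glrx had 18.6, 14.2 and 31.1, and was then 2-fold apart between R and P alone. Glrx3, a carrier of iron-sulfur clusters, had 9.30, 3.41 and 9.19. Mgst1, a membrane-bound glutathione transferase, had 33.9, 26.8 and 57.7. Gstm1, a cytosolic transferase, had the lowest ratio of R/N among genes at an FPKM of 5 or more, at 10.1, 10.2 and 8.46.

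In the thioredoxin, peroxiredoxin and sulfiredoxin list no gene was 2-fold apart between P and N (20 measured) or R and N (21 measured), and 1 of 21 was higher in R than in P. This was Sod2, the mitochondrial superoxide dismutase, with an FPKM of 13.9 in N, 7.20 in P and 22.8 in R. Prdx5 was the highest of the list at 297, 257 and 365. Txnip, which binds and inhibits thioredoxin, had the lowest ratio of R/N among genes at an FPKM of 5 or more, at 148, 171 and 111.

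Of 11 measured genes of NRF2 and its regulators, none was 2-fold apart in P or R against N, and the medians were 0.01 and -0.12. Sqstm1, the autophagy receptor that sequesters Keap1, was at 337 in N, 340 in P and 311 in R. Nfe2l1, a relative of NRF2, had 99.7, 87.3 and 185, and with assembled transcripts 129, 116 and 204, which is under 2-fold for R/P. Gsk3b, a kinase that marks NRF2 for degradation, had 12.3, 12.5 and 6.28, and with assembled transcripts 12.3, 12.5 and 11.1.

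Other NRF2 targets stood near the median of all genes. Of 27 measured, 0 were higher and 1 lower in each of the 3 comparisons, with medians of -0.0034, -0.02 and 0.05. Fth1, the ferritin heavy chain, was the most abundant at an FPKM of 5950 in N, 4965 in P and 5886 in R. G6pdx, the entry enzyme of the pentose phosphate pathway, was at 25.2, 22.2 and 35.6. Aldh3a1, an aldehyde dehydrogenase, was at 17.6, 17.9 and 3.59, but at 17.7, 21.2 and 15.6 with assembled transcripts, and was then not apart. Mt2, a metallothionein, had 197, 94.2 and 160, and was counted as 2-fold lower in P against N, and with assembled transcripts (197, 94.2 and 189.5) also as 2-fold higher in R against P.

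On the lipid side of ferroptosis 19 genes were measured, with medians of 0.06, 0.14 and 0.16. Acsl1, an acyl-CoA synthetase, was 2-fold higher in R than in N, and Alox12e, a lipoxygenase, was counted as lower in P against N and in R against both. Both were named as the genes behind these counts. Pebp1, a partner of lipoxygenases, had the highest level and, among genes at an FPKM of 5 or more, the lowest ratio of R/N, at an FPKM of 272, 242 and 213. Plin2, which coats lipid droplets, had the highest ratio among the same genes, at 26.4, 27.5 and 35.7.

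Ferroptosis suppressors besides Gpx4 had medians of -0.10 for P/N (15 measured), 0.07 for R/N and 0.34 for R/P (14 measured). Counted as apart were 3 genes lower in P than in N, 2 lower in R than in N and 3 higher in R than in P. Hspb1, a small heat shock protein, had an FPKM of 15.5 in N, 8.07 in P and 5.56 in R. It was the only one of these lower in R than in N on both sums, since Dhcr7, of the last step of cholesterol synthesis, had 7.61 in N, was listed at 0 in P and had 0.74 in R, but 12.7, 15.3 and 18.3 with assembled transcripts. Cisd2, an iron-sulfur protein of the endoplasmic reticulum, had 5.17, 2.07 and 6.50, and 5.17, 4.60 and 6.52 with assembled transcripts. The remaining genes behind these counts were Gch1 and Coq2.

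Of the heme and iron genes, 25, 24 and 25 were measured, with medians of -0.06, 0.06 and 0.05. Tfrc, the transferrin receptor, had an FPKM of 6.44 in N, 3.88 in P and 12.3 in R. Lcn2, a siderophore-binding lipocalin that neutrophils also make, had 1124, 542 and 1894, and was lower in P than in N and higher in R than in P by 2-fold. Hmox1 had the lowest ratio of R/N among genes of this list at an FPKM of 5 or more. Gclm, Txnrd1, Glrx, Sod2, Tfrc and Lcn2 were among the genes with their lowest level in P and their highest in R. Mgst1, Prdx5, G6pdx and Nfe2l1 had the same order. The order was noted after the values were seen, and it held with or without assembled transcripts. The share of all genes with this order was not counted, so it does not set these genes apart as a group. The summed neutrophil markers were lowest in P but highest in N, with 8 of 15 at an FPKM of 1 or more in N, 3 in P and 7 in R. Single neutrophil markers differed in order. Padi4 (122, 107 and 149) was highest in R, and S100a8 (8.20, 0.55 and 5.58) and Ngp (2.87, 0 and 0.86) were highest in N. Ltf (16.1, 12.3 and 11.3) and Mmp9 (59.4, 44.6 and 41.3) were lowest in R. The part of leukocyte RNA in these values was not tested.

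Selenoproteins and their synthesis factors had medians of -0.02, 0.14 and 0.11 over 25, 26 and 26 genes. None was 2-fold apart in P or R against N, and Scly, which frees selenium from selenocysteine, was lower in R than in P, at an FPKM of 6.005, 8.55 and 3.52. With assembled transcripts Scly had 13.0, 13.0 and 16.5 and was no longer apart. Among genes at an FPKM of 5 or more, Dio2, a deiodinase, had the highest ratio of R/N, at 7.31, 11.1 and 12.1.

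Targets of ATF4, the transcription factor of amino acid starvation that also drives Slc7a11, had medians of 0.16, 0.19 and 0.02 over 16 genes. Asns, the asparagine synthetase, had an FPKM of 4.20 in N, 6.42 in P and 12.4 in R, and Mthfd2, of mitochondrial folate metabolism, had 4.15, 5.37 and 8.48. These 2 genes were 2-fold higher in R than in N and have no assembled transcripts with a level at their loci. Ddit4, an inhibitor of mTORC1, was the most abundant, at 340, 438 and 189, and was 2-fold lower in R than in P. Atf3, a stress-induced transcription factor, had 8.24, 4.64 and 13.2. With assembled transcripts Atf3 had 15.5, 5.55 and 13.4, so that R was below N and P was 2-fold lower than N.

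**Figure D5:**
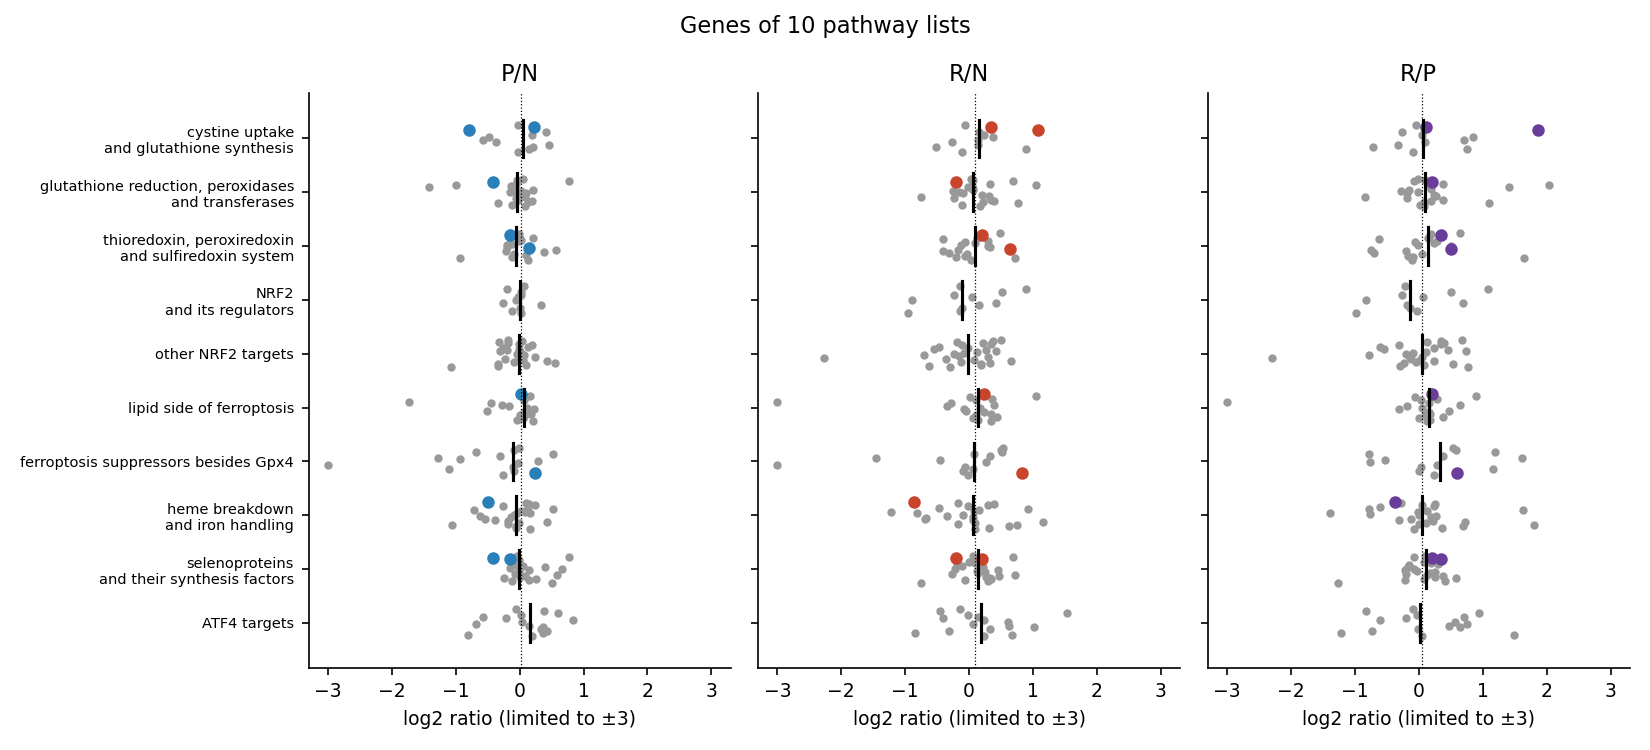
Log2 ratio of each measured gene of the 10 pathway lists for P/N, R/N and R/P, limited to ±3, with list medians as bars, the median of all genes dotted and the 8 measured genes of the set in color. List medians lie between -0.13 and 0.34, and Gclm is the member farthest right for R/N and R/P.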

How the data were processed

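By the submitters' processing notes the authors used HISAT2 2.2.0 for alignment and StringTie 2.1.3 for assembly and quantification (the headers say 2.1.5). Coverage, FPKM and TPM of RefSeq and assembled transcripts are attributes of the deposited transcript lines. The notes name mm9, but 99.3% of 23188 symbols overlap their GRCm38 gene, so coordinates are given as GRCm38. For strand and multimapping settings: not given in the sources used here.

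FPKM was summed per gene over the transcripts that carry its name. None of the 12520 assembled transcripts carries one, and 9386 could be placed in a gene's locus. Adding them was chosen after seeing the data. The genes, lists and naming rule were chosen with earlier results of these data known. The rule names all members and their transcripts with an FPKM of at least 1, and of each list the highest gene, the highest and lowest ratio of R/N at an FPKM of at least 5, and every gene 2-fold apart at that level. Others, named behind small counts, were chosen after their values were seen. Of 303 listed genes 300 were found, 12 of them under an older symbol. Fragments were aligned bases divided by 300 per read pair. Intervals are exact Poisson and, for ratios, Clopper-Pearson intervals. The code for counts and intervals was run on simulated Poisson counts. These hold no spread between cultures and no division of reads among transcripts, so they say nothing about such error. Tools were Python 3.11.15 with pandas 2.3.3, NumPy 2.4.6 and SciPy 1.17.1, and Matplotlib 3.10.9 for plots.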

Additional observations from a re-analysis of the deposited data

Results flagged for a closer look

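Transcripts assembled from the reads carry no gene name in the deposited files and were outside the named sums. At 3 of the 9 loci such transcripts were higher in a co-culture library than in N beyond both counting intervals. At Slc7a11, MSTRG.8948.2 had an FPKM of 2.92 in R against 1.71 in N. At Txnrd1, MSTRG.1405.2 had 9.52 in R and under 1 fragment in N and in P, and MSTRG.1405.3 had 1.14 in R and likewise under 1 elsewhere. MSTRG.1405.2 has 13 exons in common with NM_001042513 and is 1 base longer. At Acsl4, MSTRG.15578.2 had 1.54 in P and 1.18 in R against 0.66 in N. Other assembled transcripts of these loci went the other way, MSTRG.15578.1 at Acsl4 with 3.72 in N, 2.01 in P and 2.28 in R, and MSTRG.1405.4 at Txnrd1 with 2.41, 1.90 and 1.20. Because StringTie divides the reads of a locus among its transcripts, these values also depend on how reads were shared with the RefSeq transcripts.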

How the results depend on the processing

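No gene of the 9 was 2-fold apart between P and N under any 2-fold setting, and 1 (Gclm) was at 1.5-fold. For R/N the count of 1 became 0 with a pseudocount of 1 and 4 at 1.5-fold. It became 2 with TPM, where the minimum of 1 is a TPM, and 2 without a filter. The gene added in both was Slc7a11, lower on its RefSeq transcript but higher with the assembled one. For R/P the count of 1 became 2 with TPM and 2 at 1.5-fold. The RefSeq setting equals the reported one. With N and P exchanged, all 9 ratios of P/N change sign and R/N and R/P of every gene trade places, both by construction. Gclm stays higher in R, with log2 ratios of 1.87 for R/N and 1.07 for R/P. Only for Gpx4 do R/N and R/P change sign (to 0.21 and -0.21). Of 27 log2 ratios, 27 kept their sign with TPM, either pseudocount and rescaling, 26 with the highest transcript only (Txnrd1, P/N, 0.01) and 25 with assembled transcripts (Slc7a11, R/N 0.44 and R/P 0.51). Taking all genes, the counts of 640, 921 and 1019 apart for P/N, R/N and R/P were 231, 557 and 656 with assembled transcripts, 384, 607 and 689 with a pseudocount of 1, 1099, 1396 and 1531 with TPM, 1557, 1820 and 2025 with no filter, 211, 425 and 506 at 5 FPKM or more, and 1332, 1964 and 2164 at 1.5-fold. No paired analysis was possible because each condition has 1 library, and no replicate could be left out. Depth limited Slc7a11 most, with 38 fragments on its RefSeq transcript in R.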
